A study of Mus musculus with 16 samples.

Results

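T cells and natural killer (NK) cells are read here through 34 genes listed by their role in those cells, from the pan-leukocyte phosphatase gene Ptprc to the granzymes and the NK receptors. Each gene was represented by the array row that carries only its symbol and has the highest mean over all arrays. By that rule 33 of the 34 genes were measured, out of 19938 genes on the array with a row of their own; Il2rg is not analysed here. All 33 had exactly 1 such row.

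Liver RNA came from mice of the C57BL/6 background in 2 groups, Pdgf-c transgenic (7 arrays) and wildtype (9 arrays), and was hybridised to Affymetrix Mouse Gene 1.0 ST arrays. The transgene product, PDGF-C, is a platelet-derived growth factor that acts on mesenchymal cells. The labels do not name the promoter that drives the transgene, the age or sex of the mice, a treatment, or whether each array is a separate animal, so the p-values measure the spread between these samples. They give the cell type as stromal cells, while the protocol extracts total hepatic RNA; the hepatocyte gene Alb lay between 13.5 and 13.7 on the log2 scale in wildtype arrays and between 13.5 and 13.6 in transgenic ones. The Pdgfc row was higher in the transgenic group by 0.44 ± 0.0873 (SE), with an adjusted p of 0.00132 (limma). Column medians lay between 5.20 and 5.36, and Pearson's r between arrays over all rows between 0.976 and 0.991. The number of arrays limits the precision.

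T cells recognise peptides through a receptor that signals by way of the CD3 chains and the zeta chain, with CD4 or CD8 as coreceptor. NK cells carry activating and inhibitory receptors in place of that receptor, and both cell types kill by releasing perforin and granzymes. The mouse liver holds many NK cells and other innate lymphocytes beside T cells, together with Kupffer cells and other myeloid cells that share some of the same genes.

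Most T and NK cell genes were dim in whole-liver RNA. All levels are log2 intensities, and the median of the whole table was 5.26. In wildtype liver 6 of the 33 group means lay above it, those of Cd52, Zap70, Ptprc, Ltb, Prf1 and Nkg7, and in transgenic liver Cd3g and Cd8a joined them to make 8. Of all 19938 genes, 11357 had a mean above that median in wildtype liver and 11577 in transgenic liver. Nkg7 stood at the boundary in wildtype liver, with a mean that rounds to 5.26, and Cd8a just below it at 5.24. The defining T and NK genes Cd3e, Cd4, Cd8b1, Ncr1 and Klrb1c stayed below the median in both groups, and Klrb1c and Klrk1 were also below the 20th percentile of the table (3.45). In rows this dim a small change can go undetected.

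Against that low level, 8 of the 33 genes rose in the transgenic livers, 1 fell and 24 were not called (limma, Benjamini-Hochberg adjustment over all 35557 rows, adjusted p under 0.05). After quantile normalization 5 rose, without Cd3d, Ltb and Lat. Over all rows 10.6% were called higher and 8.26% lower, and over 1 row per gene 12.1% and 11.1%. The median difference of the 33 genes was 0.08 on the log2 scale, beside -0.04 over all genes. Of the 26 members with a mean over all arrays below the table median, 4 rose and 1 fell, where 6.39% of all such dim genes rose and 2.36% fell. Among the 7 members above it 4 rose and none fell, where 16.4% of all such genes rose and 17.5% fell. The groups did not overlap in 5 genes, all higher: Cd52, Klrd1, Ptprc, Nkg7 and Cd3g; 4.4% of all rows lay wholly higher and 2.38% wholly lower. As deposited, 56.3% of all called rows were higher, 48.3% after quantile normalization and 38.0% once array medians were set equal. In bulk RNA, more cells of a type and more RNA per cell cannot be told apart.

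**Figure D1:**
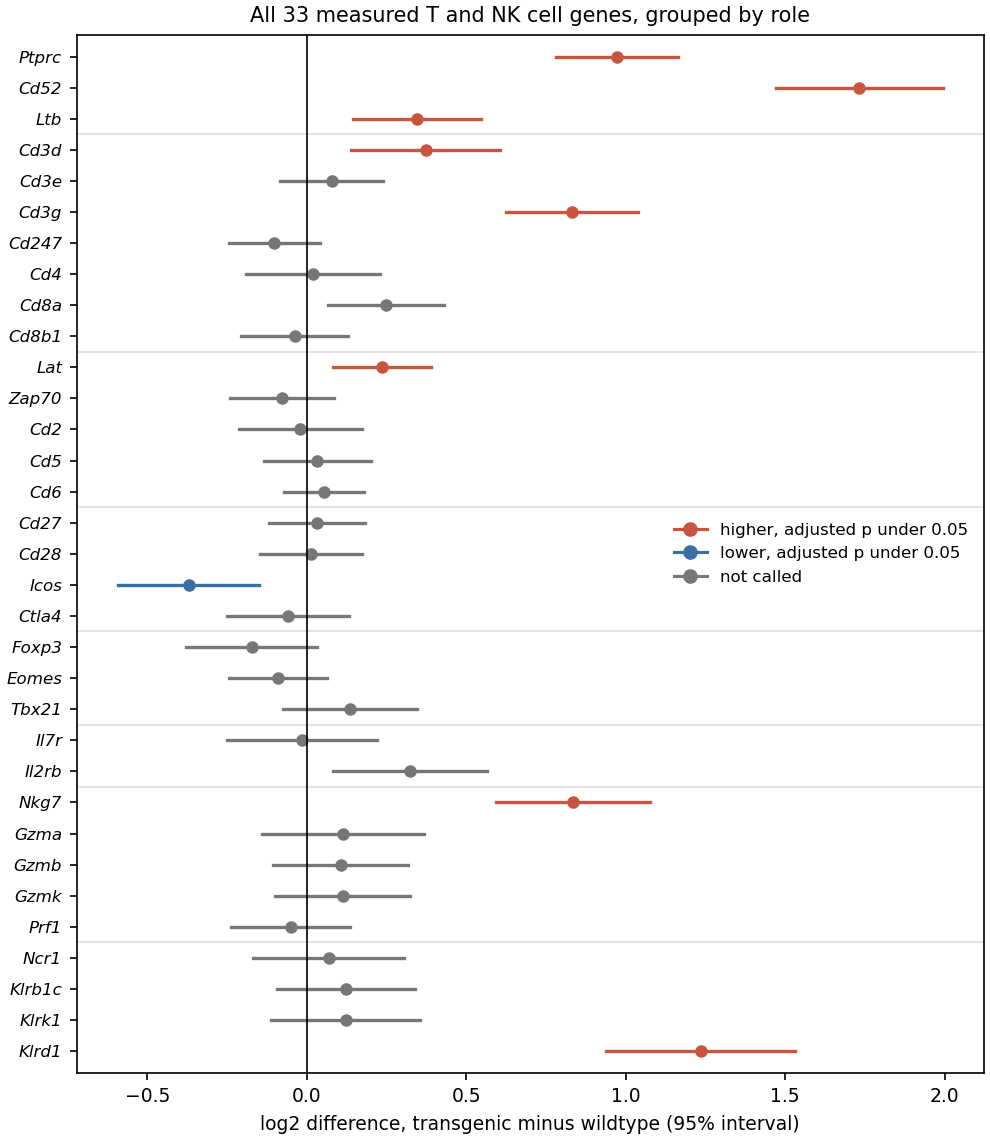
Log2 difference, transgenic minus wildtype, of the 33 measured T and NK cell genes, with 95% intervals of the limma fit over 7 and 9 arrays; horizontal lines separate the roles. The intervals of Cd52, Klrd1, Ptprc, Nkg7 and Cd3g lie above 0.5, Icos lies below 0, and most others span 0.

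All 3 members of the group of leukocyte-wide surface genes and lymphocyte cytokine rose, by unequal amounts. Cd52 encodes a short GPI-anchored glycoprotein of lymphocytes, monocytes and other leukocytes. Its lowest, median and highest values were 6.48, 7.09 and 7.46 in wildtype arrays and 8.60, 8.84 and 9.11 in transgenic arrays. Every transgenic array lay more than 1 log2 unit above the highest wildtype array, and the difference of 1.73 ± 0.124 (SE) is a 3.32-fold rise (limma adjusted p = 1.22e-08). Ptprc, which encodes the CD45 phosphatase carried by leukocytes, ran from 5.72 through 6.10 to 6.34 in wildtype arrays and from 6.81 through 6.95 to 7.22 in transgenic arrays. The groups were again separate, and Ptprc rose 1.96-fold (0.97 ± 0.0905, limma adjusted p = 3.55e-07). Ltb, the lymphotoxin beta chain made by lymphocytes and needed for lymphoid tissue, had wildtype values of 5.28, 5.63 and 5.91 and transgenic values of 5.66, 5.99 and 6.26 (lowest, median, highest). In Ltb 5 of 7 transgenic arrays exceeded all wildtype arrays, and the rise was 1.27-fold (0.34 ± 0.0953, limma adjusted p = 0.0152); after quantile normalization it was 0.27 and no longer called (adjusted p = 0.0648).

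**Figure D2:**
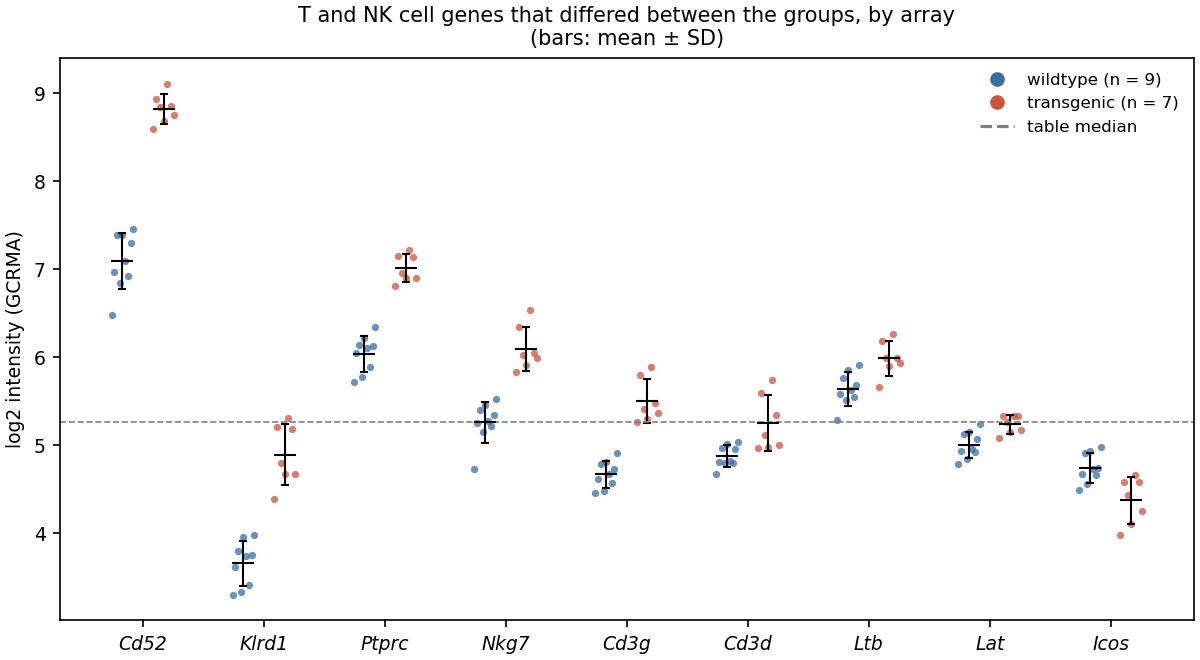
Log2 intensity of the 9 T and NK cell genes that differed between the groups, 1 point per array, with mean ± SD as bars and the table median of 5.26 as a dashed line. Wildtype and transgenic points are separate for Cd52, Klrd1, Ptprc, Nkg7 and Cd3g and overlap for Cd3d, Ltb, Lat and Icos.

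The array rows of the CD3 complex genes did not move as 1 unit. Cd3g, Cd3d and Cd3e, which encode the gamma, delta and epsilon chains, lie side by side in 1 cluster, with Cd3g and Cd3d read from opposite strands away from each other. Their upstream windows, the 250 bases before each gene's start, are shown because the change of Cd3g differed from those of Cd3d and Cd3e. The window of Nkg7, which rose by about as much as Cd3g, is shown with them. The windows are from RefSeq, build GRCm38.p6: chr9:44980432-44980681 on the minus strand for Cd3g, chr9:44981536-44981785 on the plus strand for Cd3d, chr9:45009612-45009861 on the minus strand for Cd3e and chr7:43436888-43437137 on the plus strand for Nkg7. Each is written 5′ to 3′ on the gene's strand, and capitals mark matches to 3 motif cores of lymphocyte transcription factors, listed with their shares after the sequences.
Cd3g: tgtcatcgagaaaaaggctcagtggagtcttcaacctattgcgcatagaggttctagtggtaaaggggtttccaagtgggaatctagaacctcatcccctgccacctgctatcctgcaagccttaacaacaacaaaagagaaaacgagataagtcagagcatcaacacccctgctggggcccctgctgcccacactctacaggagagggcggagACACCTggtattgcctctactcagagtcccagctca
Cd3d: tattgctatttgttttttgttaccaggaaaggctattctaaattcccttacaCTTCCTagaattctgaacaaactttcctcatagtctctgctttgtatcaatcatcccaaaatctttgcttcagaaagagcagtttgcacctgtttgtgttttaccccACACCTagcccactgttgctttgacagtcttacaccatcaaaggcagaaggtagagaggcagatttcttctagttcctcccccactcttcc
Cd3e: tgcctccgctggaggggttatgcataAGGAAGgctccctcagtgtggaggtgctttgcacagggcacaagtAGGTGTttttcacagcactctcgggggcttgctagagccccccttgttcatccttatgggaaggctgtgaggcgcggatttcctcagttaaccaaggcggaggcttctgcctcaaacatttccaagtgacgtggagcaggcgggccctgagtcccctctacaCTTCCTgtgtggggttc
Nkg7: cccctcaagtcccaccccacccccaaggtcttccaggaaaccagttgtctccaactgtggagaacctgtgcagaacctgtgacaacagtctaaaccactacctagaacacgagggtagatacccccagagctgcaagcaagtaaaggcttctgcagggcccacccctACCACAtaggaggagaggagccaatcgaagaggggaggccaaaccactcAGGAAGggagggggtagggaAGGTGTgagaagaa

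The motifs searched, on both strands, were AGGAAG for the ETS family, TGTGGT for the RUNX family and AGGTGT for the T-box family to which Eomes and Tbx21 belong. AGGTGT and TGTGGT can share letters where they adjoin, but no matches overlap in the windows shown. AGGTGT or its reverse complement ACACCT was in all 4 windows shown, at 36 to 31 bases before the start of Cd3g, 91 to 86 before Cd3d, 179 to 174 before Cd3e and 14 to 9 before Nkg7. Promoter windows were found for 25 of the 34 listed genes, in 30 windows since some genes have several starts. The 9 without a window were Cd2, Cd4, Cd8b1, Cd6, Cd28, Icos, Il2rb, Klrd1 and Cd52. AGGTGT was in 33.3% of those windows and in 11.8% of all 32851 windows, AGGAAG in 60.0% and 29.5%, and TGTGGT in 33.3% and 14.0%. AGGAAG or CTTCCT was in the windows of Cd3d, Cd3e and Nkg7, and TGTGGT's reverse complement ACCACA in that of Nkg7 alone among the 4. A match describes letters in a window and is not a measured binding site.

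Cd3g had wildtype values of 4.46, 4.67 and 4.91 and transgenic values of 5.26, 5.41 and 5.89 (lowest, median, highest), without overlap. The gene rose 1.78-fold (0.83 ± 0.0985, limma adjusted p = 6.51e-06). Cd3d ranged from 4.67 through 4.82 to 5.04 in wildtype arrays and from 4.97 through 5.11 to 5.74 in transgenic arrays. Only 4 of 7 transgenic arrays exceeded all wildtype arrays in Cd3d, and arrays 6 and 5 stood highest, at 5.74 and 5.60; the same 2 arrays were the highest for Cd3g, at 5.89 and 5.80. Cd3d rose 1.30-fold (0.37 ± 0.111, limma adjusted p = 0.0232). That call was lost without transgenic array 5 (adjusted p = 0.0551), after quantile normalization (0.0517) and with arrays centred on their medians (0.0589). Cd3e was 0.08 ± 0.0769 higher, with a 95% interval of -0.08 to 0.24, and Cd247, which encodes the zeta chain, was at -0.10 ± 0.0682 (-0.25 to 0.04). Neither was called (limma adjusted p = 0.549 and 0.353), and the groups overlapped in both.

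**Figure D3:**
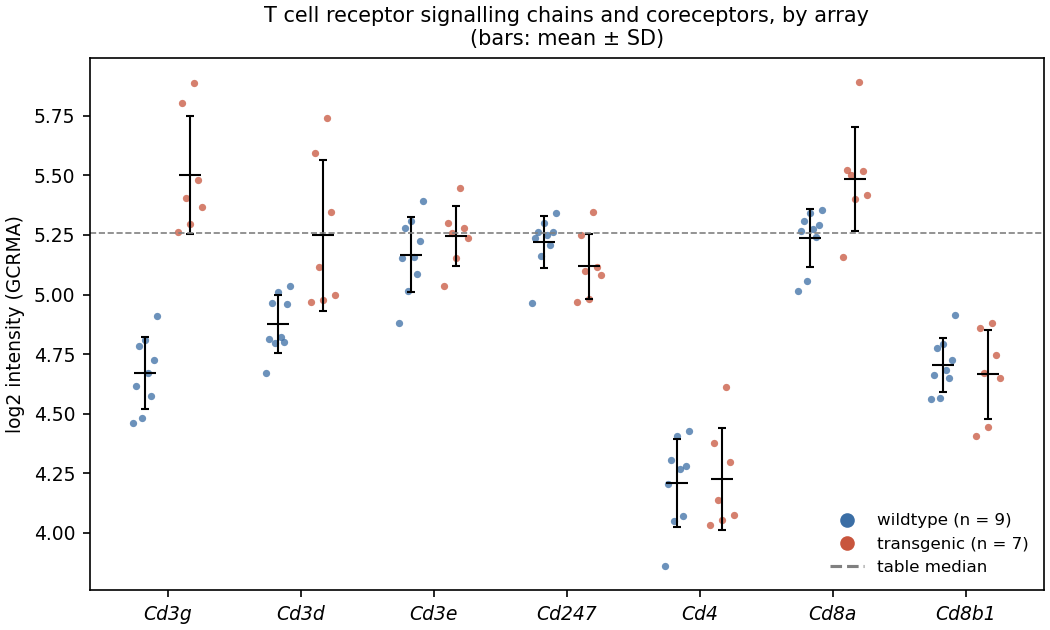
Log2 intensity of the CD3 and zeta chain genes and of the coreceptor genes, 1 point per array, with mean ± SD as bars and the table median as a dashed line. Transgenic Cd3g lies above all wildtype arrays and transgenic Cd3d is spread from 4.97 to 5.74, while Cd3e, Cd247, Cd4 and Cd8b1 overlap between the groups.

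Whether such partners changed by different amounts was tested directly, as the log2 difference between the 2 genes within each array. The rule, added after the values were seen, took all 14 pairs of measured members that lie within 500 kb of each other in GRCm38.p6 or are both chains of the CD3 complex, and p-values of the exact two-sided permutation test over arrays were adjusted over the 14. In 7 pairs the changes differed. The change of Cd3g exceeded that of Cd247 by 0.93 ± 0.127, that of Cd3e by 0.75 ± 0.107 and that of Cd3d by 0.46 ± 0.0883, in 7 of 7 transgenic arrays each (exact permutation p = 8.74e-05, the smallest the design can give; adjusted p = 0.000306). Cd3d exceeded Cd247 by 0.47 ± 0.152 (adjusted exact p = 0.00734). It exceeded Cd3e by 0.29 ± 0.147, which did not pass (adjusted exact p = 0.0874) but passed without transgenic array 4 or wildtype array 9 (smallest adjusted p 0.0329). Cd3e and Cd247 differed by 0.18 ± 0.0892 (adjusted exact p = 0.126) and passed without wildtype array 6 (0.0131). Each of these genes is read from 1 row. The wildtype means of Cd3g, Cd3d, Cd3e and Cd247 were 4.67, 4.88, 5.17 and 5.22, below the table median of 5.26. Unequal changes of the transcripts and unequal response of the rows cannot be told apart here. The other pairs are given with their genes.

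None of the 3 coreceptor genes was called, with Cd8a close to the threshold. Cd4, carried by helper T cells, differed by 0.02 ± 0.0995 with a 95% interval of -0.19 to 0.23, a fold of 0.876 to 1.17. Cd8a, the alpha chain of the cytotoxic T cell coreceptor, which some dendritic and innate cells also carry, had wildtype values of 5.01, 5.27 and 5.35 and transgenic values of 5.16, 5.50 and 5.89 (lowest, median, highest). In Cd8a 6 of 7 transgenic arrays lay above all wildtype arrays and transgenic array 3 lay below the wildtype median. The difference of 0.25 ± 0.0865 missed the threshold (limma adjusted p = 0.0545) and passed it without transgenic array 3 (0.0148), on rows above the table median (0.0341) and on rows with 1 symbol (0.0338). Its neighbour and partner chain Cd8b1, which is restricted more closely to conventional CD8 T cells, differed by -0.04 ± 0.0796 (limma adjusted p = 0.803). The change of Cd8a exceeded that of Cd8b1 by 0.29 ± 0.0729 (adjusted exact p = 0.00538).

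Below the receptor, 1 of 5 signalling and adhesion genes rose. Lat, the adaptor that assembles the T cell signalling complex, had wildtype values of 4.79, 4.96 and 5.24 and transgenic values of 5.08, 5.26 and 5.33 (lowest, median, highest). Its rise was 1.18-fold (0.23 ± 0.0728, limma adjusted p = 0.0297), with 4 of 7 transgenic arrays above all wildtype ones. Lat was close to the threshold: the call was lost without any 1 of transgenic arrays 1, 2, 5 or 6 or wildtype arrays 2, 3, 4 or 8 (adjusted p up to 0.0619), after quantile normalization (0.0814) and with centring (0.0848). Zap70, the kinase that binds the phosphorylated zeta chain, was among the brighter members and ran from 5.91 to 6.31 in wildtype arrays and from 5.87 to 6.30 in transgenic ones. It differed by -0.08 ± 0.0777, a 95% interval of -0.24 to 0.09. Cd2, an adhesion receptor of T and NK cells, was at -0.02 ± 0.0909. The neighbouring scavenger-receptor family genes Cd5 and Cd6, which restrain T cell receptor signals, were at 0.03 ± 0.0798 and 0.05 ± 0.06, and their changes were not distinguishable (difference 0.02 ± 0.07, adjusted exact p = 0.959).

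Costimulatory and inhibitory receptor genes held the member that fell. Icos, an inducible costimulator of activated and follicular helper T cells, had wildtype values of 4.50, 4.73 and 4.98 and transgenic values of 3.98, 4.44 and 4.67 (lowest, median, highest). In Icos 4 of 7 transgenic arrays lay below all wildtype arrays, and the gene fell by 0.37 on the log2 scale (SE 0.105, 1.29-fold lower, limma adjusted p = 0.0181). Its neighbours Cd28, the main costimulatory receptor, and Ctla4, which competes with Cd28 for ligand, were at 0.01 ± 0.0762 and -0.06 ± 0.0908 and were not called. The change of Cd28 exceeded that of Icos by 0.38 ± 0.123 (adjusted exact p = 0.0196). For Ctla4 and Icos the difference was 0.31 ± 0.121 (adjusted exact p = 0.0502), and it passed without wildtype array 2 or 5, without transgenic array 3 or 5, or after quantile normalization (0.0474). The changes of Cd28 and Ctla4 differed by 0.07 ± 0.089 (adjusted exact p = 0.528). Cd27, a TNF-receptor family costimulator, was at 0.03 ± 0.0715, and its change and that of the nearby Cd4 differed by 0.01 ± 0.104 (adjusted exact p = 0.989).

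None of the 3 lineage transcription factors was called. Foxp3, the factor of regulatory T cells, was -0.17 ± 0.0981 (95% interval -0.38 to 0.03, limma adjusted p = 0.258). The T-box factors Tbx21, of type 1 T cells and NK cells, and Eomes, of NK cells and memory CD8 T cells, were at 0.13 ± 0.0997 and -0.09 ± 0.0728. Of the cytokine receptor chains, Il7r, the IL-7 receptor of naive T cells and innate lymphocytes, was at -0.01 ± 0.112. Il2rb, the chain that NK and CD8 T cells use for IL-2 and IL-15, had wildtype values of 4.42, 4.86 and 5.25 and transgenic values of 4.98, 5.06 and 5.40 (lowest, median, highest). Only 2 of 7 transgenic arrays exceeded all wildtype arrays in Il2rb, and the difference of 0.32 ± 0.115 missed the threshold (limma adjusted p = 0.0575). It passed without wildtype array 6 (0.0194) and on rows with 1 symbol (0.0306).

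In the cytotoxic granule group Nkg7 rose and perforin and the granzymes did not pass. Nkg7, a granule membrane protein of NK and cytotoxic T cells, had wildtype values of 4.73, 5.27 and 5.53 and transgenic values of 5.83, 6.03 and 6.53 (lowest, median, highest). The groups were separate and the rise was 1.78-fold (0.84 ± 0.114, limma adjusted p = 3.36e-05); transgenic arrays 6 and 5 were again the highest, at 6.53 and 6.34. Prf1, which encodes perforin, ran from 4.99 through 5.49 to 5.63 in wildtype arrays and from 5.11 through 5.38 to 5.62 in transgenic ones, and differed by -0.05 ± 0.0889. Its 95% interval of -0.24 to 0.14 lies below the rise of 0.84 measured for Nkg7. That interval covers the spread between arrays and not how strongly each row responds to its transcript. The serine proteases Gzma, Gzmb and Gzmk were at 0.11 ± 0.121, 0.11 ± 0.1 and 0.11 ± 0.101, with upper interval bounds of 0.37, 0.32 and 0.33. Gzma and Gzmk are neighbours, and their changes differed by less than 0.01 (adjusted exact p = 0.999).

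Among the NK receptors Klrd1 stood out. It encodes CD94, which pairs with NKG2 chains to bind the non-classical class I molecule Qa-1. Klrd1 had wildtype values of 3.30, 3.74 and 3.97 and transgenic values of 4.39, 4.79 and 5.31 (lowest, median, highest). The lowest transgenic value exceeded the highest wildtype value, and the gene rose 2.35-fold (1.23 ± 0.141, limma adjusted p = 4.20e-06). The gene next to it, Klrk1, which encodes the activating receptor NKG2D, ran from 2.90 to 3.71 in wildtype arrays and from 3.11 to 3.60 in transgenic ones and differed by 0.12 ± 0.111. Klrk1 lay below the 20th percentile of the table in both groups, so its row gives little measure of its own change. As measured, the change of Klrd1 exceeded that of Klrk1 by 1.11 ± 0.117 in 7 of 7 arrays (exact permutation p = 8.74e-05, the smallest possible; adjusted p = 0.000306), and by 1.20 with values floored at that percentile. Ncr1, the NK receptor NKp46, was at 0.07 ± 0.112 and Klrb1c, the NK1.1 antigen, at 0.12 ± 0.103. The partner chain genes of CD94, Klrc1, Klrc2 and Klrc3, were at -0.18 ± 0.109, 0.03 ± 0.117 and -0.01 ± 0.113, none of them called, and all 3 lay below the 20th percentile in both groups, where a change may not be measurable.

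**Figure D4:**
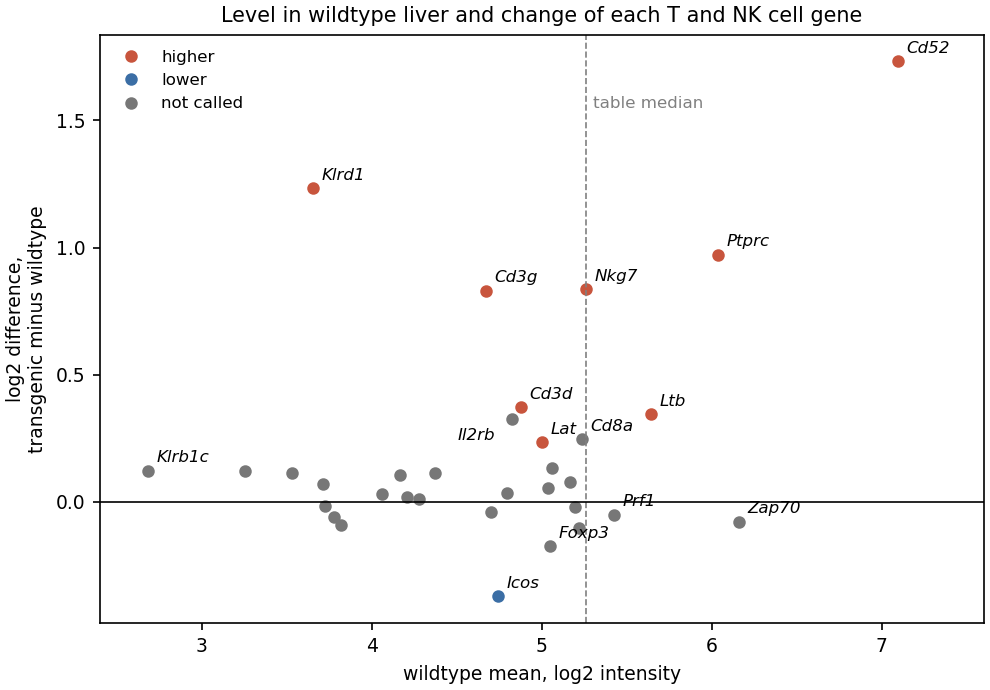
Wildtype mean (log2 intensity) against the log2 difference, transgenic minus wildtype, of the 33 genes, coloured by call, with the table median as a dashed line. Genes that rose are found on both sides of the median, from Klrd1 at 3.66 to Cd52 at 7.09, and Zap70 and Prf1 lie above it without a change that passed.

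Because Ptprc is carried by all leukocytes, each member was also compared with it, by fitting every row minus the Ptprc value of the same array. By that measure 28 members changed less than Ptprc, 3 did not differ from it and 1 changed more. Of all other rows 96.3% changed less, so the count of 28 is near the background. Cd52 exceeded Ptprc by 0.76 ± 0.109 (limma adjusted p = 6.1e-07), and 0.636% of all rows did. Cd3g, Nkg7 and Klrd1 were not distinguishable from Ptprc, at -0.14 ± 0.136, -0.14 ± 0.133 and 0.26 ± 0.148 (limma adjusted p = 0.313, 0.318 and 0.0916). Klrd1 exceeded it without transgenic array 1 (adjusted p = 0.043) or wildtype array 3 (0.0206).

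Of 103 further T and NK genes in 6 lists, 27 (26.2%) rose and 3 fell, with a median difference of 0.08; among the members 24.2% rose, and over all genes 12.1%. Checkpoint, costimulatory and activation receptors rose in 10 of 27 cases with no member of the list lower, led by the chemokine receptor Cxcr6 of liver-resident T and NKT cells (0.84 ± 0.111), the inhibitory receptor Havcr2, also on myeloid cells (0.79 ± 0.0769), and the integrin chain Itgae of tissue-resident T cells and some dendritic cells (0.65 ± 0.124). The exhaustion-associated receptors Pdcd1 and Lag3 were at -0.08 ± 0.112 and -0.11 ± 0.0793 and were not called. NK receptors and adaptors rose in 6 of 20 cases, led by Klra2 of the Ly49 family (0.99 ± 0.138) and the adaptors Tyrobp and Fcer1g (0.87 ± 0.112 and 0.76 ± 0.0969), both of which myeloid cells also use. Which cells carried the rise of Klra2 was not tested. Klra3, Klra5 and Klra8 of the same Ly49 family were at -0.13 ± 0.146, -0.03 ± 0.1055 and 0.08 ± 0.138 and were not called. Among other effector genes 5 of 16 rose and 1 fell: the chemokine Ccl5 rose 1.91-fold (0.94 ± 0.0986), the cathepsin Ctsw of cytotoxic lymphocytes 1.53-fold (0.61 ± 0.104) and Srgn, the granule proteoglycan serglycin, 1.30-fold (0.38 ± 0.0988). Gzmg fell (-0.32 ± 0.105) and the effector cytokine Ifng was at -0.05 ± 0.109.

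In 3 further lists the shares called higher, 17.6%, 13.3% and 12.5%, were nearer to the 12.1% of all genes. T cell receptor signalling genes outside the members rose in 3 of 17 cases and fell in 1. The adaptor Fyb rose 1.65-fold (0.72 ± 0.1), the exchange factor Vav1 1.39-fold (0.48 ± 0.0942) and the phosphatase Ptpn22 1.28-fold (0.36 ± 0.0782), while the kinase Prkcq, used in T cells beside the receptor, fell (-0.23 ± 0.0626). Among the 13 not called, Themis, Skap1 and Ubash3a were at 0.02 ± 0.1305, -0.02 ± 0.0701 and -0.02 ± 0.0868. Which cells carried the changes of this list was not tested. Transcription factors rose in 2 of 15 cases, Ets1 (0.51 ± 0.0897) and Ikzf1 (0.34 ± 0.0738), and Zbtb7b, which directs the helper T cell lineage and is also expressed in liver, fell (-0.29 ± 0.0612). Of 8 lymphocyte GTPases of the GIMAP family only Gimap3 passed, at 0.44 ± 0.109. Adjusted p-values (limma) of the genes named from these lists as changed were at most 0.0421.

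Of 18 ligands for the member receptors 4 rose (22.2%) and 1 fell, with a median difference of -0.04; over all genes 12.1% rose and 11.1% fell. Il15, the cytokine that sustains NK and memory CD8 T cells through Il2rb, rose 1.97-fold (0.98 ± 0.162), with values of 4.61 to 5.43 in wildtype and 5.22 to 6.49 in transgenic arrays. Alcam, the ligand of CD6, rose 2.07-fold (1.05 ± 0.0737) and Cd48, a ligand of CD2 that most leukocytes carry, 1.88-fold (0.91 ± 0.108), and the values of both were separate between the groups. Icosl, the ligand of ICOS, rose 1.21-fold (0.28 ± 0.0703). Raet1d, a stress-induced ligand of NKG2D, fell 2.62-fold (-1.39 ± 0.26, limma adjusted p = 0.000735), from 6.73 to 8.20 in wildtype arrays to 5.18 to 6.82 in transgenic arrays. A second ligand was called lower without transgenic array 6 or wildtype array 9, and after quantile normalization or centring.

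**Figure D5:**
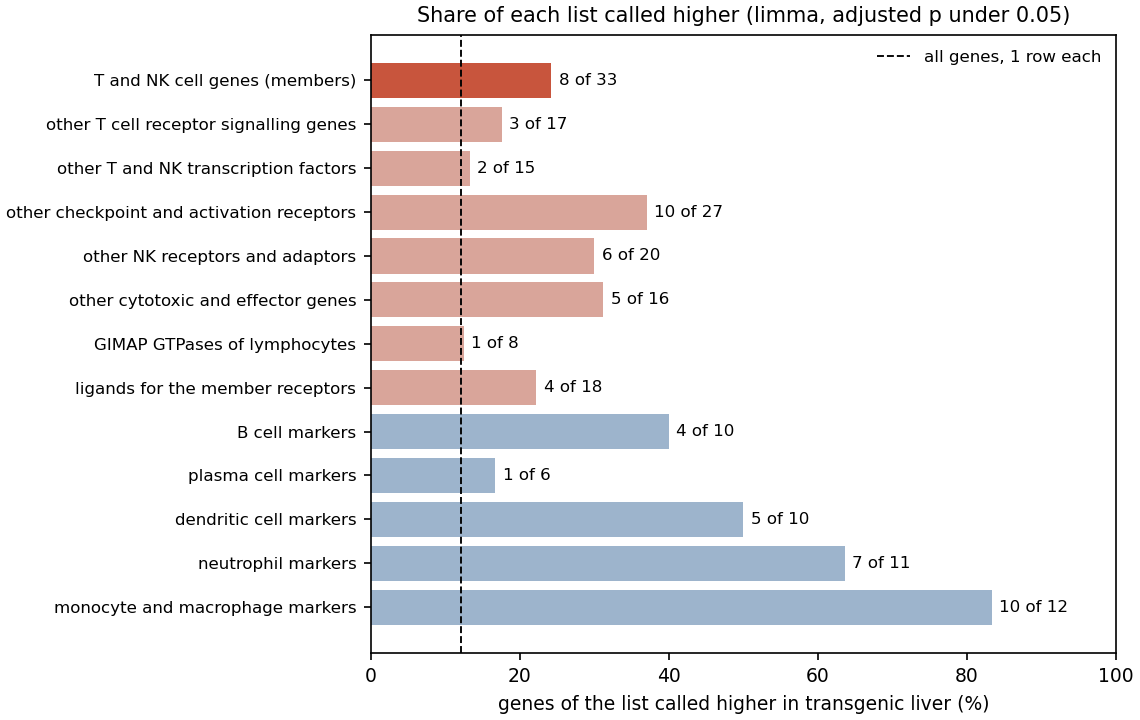
Share of the measured genes of each list called higher in transgenic liver (limma, adjusted p under 0.05), with the counts at the bars and the share of all genes, 12.1%, as a dashed line. T and NK cell lists lie between 12.5% and 37.0%, and the macrophage list reaches 83.3%.

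Every list of markers of other leukocytes also held genes that rose. Median differences were 1.18 for monocyte and macrophage, 0.58 for neutrophil, 0.21 for dendritic cell, 0.19 for B cell and 0.05 for plasma cell markers. That of the members was 0.08. Of 12 monocyte and macrophage markers 10 rose and none fell, with the mean level over the list between 6.05 and 6.68 in wildtype arrays and between 7.21 and 7.79 in transgenic arrays; Ms4a7, Cx3cr1 and Ccr2 rose 4.79-, 4.59- and 4.01-fold. Neutrophil markers rose in 7 of 11 cases (4.18 to 4.58 against 4.94 to 5.85), led by S100a8 (2.99 ± 0.245), S100a9 (1.76 ± 0.198) and Ngp (1.57 ± 0.213). Dendritic cell markers rose in 5 of 10 cases (5.34 to 5.54 against 5.78 to 5.88), led by Xcr1, Itgax and Clec9a at 0.91, 0.90 and 0.75. B cell markers rose in 4 of 10 cases (4.39 to 4.64 against 4.63 to 4.84), led by Ms4a1 (0.62 ± 0.168), Ebf1 (0.54 ± 0.113) and Cd79b (0.44 ± 0.0741). Among 6 plasma cell markers Jchain rose (1.10 ± 0.16) and Sdc1, which hepatocytes also express, fell (-0.20 ± 0.052). The lowest wildtype means among neutrophil and B cell markers were those of Cxcr2 (3.06) and Ms4a1 (3.37). Both lay below the 20th percentile of the table (3.45), as did the wildtype mean of Ngp (3.09). Outside the leukocytes, all 10 stellate cell and fibroblast markers rose, 5 of 8 endothelial markers fell and 1 rose, and 4 of 11 hepatocyte markers fell and 1 rose. That 1 hepatocyte call was lost when any of arrays 1, 3 and 4 of the transgenic group or 1, 4 and 7 of the wildtype group was left out, with equal array medians and with eBayes without trend. Of the 8 members that rose, Ptprc, Cd52 and Ltb were on the list taken as shared with other leukocytes. The other 5, Klrd1, Nkg7, Cd3g, Cd3d and Lat, were not on that list, which does not show that only lymphocytes carry them. The part of other leukocytes, or of stellate cells and fibroblasts, in any of these values was not tested.

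Across the transgenic arrays, array 1 was the highest for 9 of the 33 genes and the lowest for 6, and array 4 the highest for 7 and the lowest for 1. Array 6 was the highest for 8, among them Cd52, Ptprc, Nkg7, Cd3g, Cd3d and Cd8a, and the lowest for 7, among them Icos. Transgenic array 7 was the lowest for 9 genes and the highest for none. Leaving out any 1 array left between 6 and 9 members called higher and 1 called lower.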

How the data were processed

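RNA of 16 liver samples (7 transgenic, 9 wildtype) was measured on 1 array each, with groups and replicate numbers from the sample titles. The deposited values are log2 intensities made by the authors with GCRMA, per the submitters' processing notes; its version and settings, and scan dates or batches, are not given in the sources used here, and the log base was read from the range of 0.71 to 14.7. Its background correction can compress the changes of dim rows. Differences are transgenic minus wildtype from limma 3.58.1 in R 4.3.3 (lmFit, eBayes with trend, two-sided, 14 residual degrees of freedom) over all 35557 rows without a filter, with Benjamini-Hochberg adjustment; ± after a difference is its standard error, and intervals cover 95%. The fit was tested on simulated data. Probe annotation gave 21789 rows with 1 symbol, and no genome build is given for the array. RefSeq gene positions served to find neighbours and to place the upstream windows. Standard errors of pair differences are from the 2 group variances. All 33 measured members are described. Of other lists, up to 3 called genes by size in each direction are named, and all called ligands. Klrc1 to Klrc3, Klra3, Klra5, Klra8, Pdcd1, Lag3, Ifng, Themis, Skap1 and Ubash3a were already on these lists. The choice to name them was made after their values were seen. The members and lists were chosen with earlier results of these data known. Alternatives were other scalings, filters, eBayes settings, array weights, a floor, a block for the replicate number, and fits that leave out arrays. Plots used matplotlib 3.10.9 in Python 3.11.15.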

Additional observations from a re-analysis of the deposited data

Results flagged for a closer look

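In 66 groups of arrays (33 genes in each group), 7 values stood apart from the rest of their group by Dixon's ratio; chance flags about 1 group in 20. In wildtype liver these were Cd247 in array 6 (4.96, next value 5.16), Nkg7 in array 8 (4.73, next 5.16), Prf1 in array 9 (4.99, next 5.33), Gzma in array 5 (4.87, next 4.50) and Eomes in array 1 (4.15, next 3.90). In transgenic liver they were Eomes in array 1 (3.91, next 3.75) and Tbx21 in array 7 (4.76, next 5.20).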

How the results depend on the processing

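Cd52, Klrd1, Ptprc, Nkg7 and Cd3g kept their direction and their call in every alternative in which they were tested; rows above the median level leave out Klrd1 and Cd3g. No called result reversed. The count of members called higher (8) was 5 after quantile normalization and 5 on rows above the table median, and the count called lower (1) was 0 on those rows and 0 with the replicate block. Only 7 members were tested on rows above the median, 4 of them called higher in the main fit, and Icos was not among them. Leaving out each array gave 6 to 9 higher and 1 lower. Other T and NK genes called higher (27) were 13 on rows above the median, where fewer of them are tested, and those called lower (3) were 5 with centring and 5 on rows with 1 symbol. Members with a mean above the level mark were 31 in each group at the 20th percentile in place of the median. Members that exceeded Ptprc's change (1) numbered 1 to 2 when each array was left out, and pairs whose changes differed (7) numbered 7 to 8. Same-numbered arrays did not deviate together (correlations -0.02 to 0.09), so the numbers do not pair the samples; with the replicate block 7 members were higher, and Lat (adjusted p = 0.0669) and Icos (adjusted p = 0.08) lost their calls. The cause of these shifts was not tested where it is not stated. Signal over background limits the dim members.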
